A study of Mus musculus with 27 samples.

Results

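The *Cyp4a* genes measured in the livers of HGFAC-KO mice and littermate controls were *Cyp4a10*, *Cyp4a12a*, *Cyp4a12b*, *Cyp4a14*, *Cyp4a31* and *Cyp4a32*. These 6 genes are among 23191 gene symbols in the count table, of which 8 carry a *Cyp4a* name and 21 a *Cyp4* name. The rows were selected by gene symbol, and the family was chosen from these data with genotype differences of *Cyp4a10*, *Cyp4a12a* and *Cyp4a12b* already known. The genotype values are therefore given as a description. The 2 diet comparisons use the same mice, so their tests, adjusted over all genes, are not independent of that choice. The other 2 *Cyp4a* symbols, *Cyp4a29* and *Cyp4a30b*, had at most 1 and 6 counts in any mouse.

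CYP4A enzymes are cytochrome P450 enzymes of the endoplasmic reticulum that add a hydroxyl group to the terminal (omega) carbon of fatty acids. Alcohol and aldehyde dehydrogenases carry the products on to dicarboxylic acids, which peroxisomes shorten. In mouse liver *Cyp4a10* and *Cyp4a14* are classic targets of PPARA, the nuclear receptor activated by fatty acids and fibrates, and *Cyp4a12a* is a male-predominant gene that depends on androgen and growth hormone and makes a vasoactive product of arachidonic acid.

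All 27 mice were C57BL/6J males, 8 weeks old at the start of the diet and 4 weeks on it. There were 7 controls and 6 KO mice on chow, and 7 controls and 7 KO mice on HF/HS, a diet rich in fat and sucrose. The KO mice lacked HGFAC, a liver-secreted protease that activates hepatocyte growth factor, in the whole body after a CRISPR/Cas9 deletion across the first exons of *Hgfac*, so an effect of liver cells cannot be told apart from one of other tissues. Levels are CPM, the counts on a gene scaled to the library's counts on all named genes with TMM factors. A gene passed the test where the p of edgeR's quasi-likelihood test, adjusted over all genes tested by the Benjamini-Hochberg method, was under 0.05, and all 6 genes were above the low-count filter in every comparison.

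*Hgfac* itself was lower in every KO mouse than in every control on the same diet (75.2 ± 8.27 against 201 ± 12.8 CPM on chow, 91.8 ± 7.94 against 271 ± 15.5 CPM on HF/HS, mean ± SD, n = 6 or 7). The mouse livers had 36056177 to 57298657 counts each. The 10 hepatocyte markers summed to between 80249 and 119742 CPM in every mouse, whereas 5 of 5 adipocyte, 5 of 6 exocrine pancreas and 4 of 6 kidney tubule markers averaged under 1 CPM. In bulk liver, fewer cells of a type and less RNA per cell cannot be told apart.

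The 6 genes lie in 1 cluster on chromosome 4 of GRCm38, from the start of *Cyp4a12a* to the end of *Cyp4a32* (chr4:115299046-115621602, 322.6 kb, 13 annotated genes, pseudogenes included). In order these are *Cyp4a12a* (chr4:115299046-115332815), *Cyp4a12b* (chr4:115411624-115439034), *Cyp4a14* (chr4:115486200-115496142), *Cyp4a10* (chr4:115518264-115533649), *Cyp4a31* (chr4:115563649-115579015) and *Cyp4a32* (chr4:115600969-115621602). *Cyp4a14* is on the minus strand and the others are on the plus strand. A processed pseudogene, *Gm12837*, overlaps *Cyp4a12b* on the opposite strand.

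The coding sequences fall into 3 kinds. *Cyp4a12a* and *Cyp4a12b* were identical at 1501 of 1524 bases (98.5%). *Cyp4a10*, *Cyp4a31* and *Cyp4a32* were identical to each other at 96.0% to 97.2% of 1527 bases. *Cyp4a14* matched the other genes at only 75.1% to 75.9%. The stretch that codes for the heme-binding loop, where the P450 cysteine holds the iron, shows these kinds in 60 bases that cross from the 11th into the 12th exon. Capitals mark the 10 positions that vary among the 6 genes, and *Cyp4a10* stands for *Cyp4a31* and *Cyp4a32*, and *Cyp4a12a* for *Cyp4a12b*, because their windows were identical.
Cyp4a10: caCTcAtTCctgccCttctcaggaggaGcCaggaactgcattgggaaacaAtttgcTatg
Cyp4a12a: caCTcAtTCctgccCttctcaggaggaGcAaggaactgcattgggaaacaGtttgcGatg
Cyp4a14: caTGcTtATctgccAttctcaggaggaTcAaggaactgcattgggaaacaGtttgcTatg

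A read as short as those of this study, 50 bases, cannot always name its gene within a kind. The reads were paired, and the mate can place a fragment that 1 read cannot, so the shares below count single windows and not fragments. Of all 50-base windows of the *Cyp4a12a* transcript, 48.9% also occurred in *Cyp4a12b*. The share of windows found in another gene was 46.8% for *Cyp4a32*, 30.5% for *Cyp4a10*, 21.8% for *Cyp4a31* and 0.245% for *Cyp4a14*. How the counting treated reads that fit several genes was not given in the sources used here, so the split within each kind is uncertain and sums over a kind are given beside the single genes. The coding windows of the *Cyp4a12* pair that differ most, both in exon 6 (chr4:115326632-115326681 and chr4:115432885-115432934), differ at the 4 capitals.
Cyp4a12a: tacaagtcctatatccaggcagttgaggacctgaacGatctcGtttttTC
Cyp4a12b: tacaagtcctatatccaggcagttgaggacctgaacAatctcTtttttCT

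Per kilobase of annotated exon, *Cyp4a14* and *Cyp4a10* were the main *Cyp4a* transcripts. In control liver on chow, *Cyp4a14* had 1852 ± 193 CPM per kb and *Cyp4a10* 904 ± 122 (SD, n = 7). *Cyp4a12a* followed with 106 ± 10.6, *Cyp4a12b* with 43.3 ± 4.71, *Cyp4a32* with 26.5 ± 7.04 and *Cyp4a31* with 22.8 ± 3.45 CPM per kb. As counted, *Cyp4a14* was above *Cyp4a10*, and *Cyp4a10* above *Cyp4a12a*, in every mouse of all 4 groups. If reads that fit several genes were dropped, genes with more shared windows would be counted too low beside *Cyp4a14*. Shared windows made up 0.245% for *Cyp4a14*, 30.5% for *Cyp4a10* and 48.9% for *Cyp4a12a*. In controls on HF/HS the lowest *Cyp4a14* (960 CPM per kb) lay below the highest *Cyp4a10* (1113), so the order of these genes is least certain there. The lower end of the order was not fixed. In control liver on chow *Cyp4a32* and *Cyp4a31* overlapped, with *Cyp4a32* higher in 5 of 7 mice. In KO liver on HF/HS *Cyp4a12b* was the lowest gene (21.5 ± 6.32 CPM per kb, n = 7) and was below *Cyp4a32* in 6 of 7 mice. The annotated *Cyp4a32* transcript is 1530 bases, 1527 of them coding, while the other transcripts are 2109 to 2509 bases, so its level per length covers almost no untranslated sequence.

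**Figure D1:**
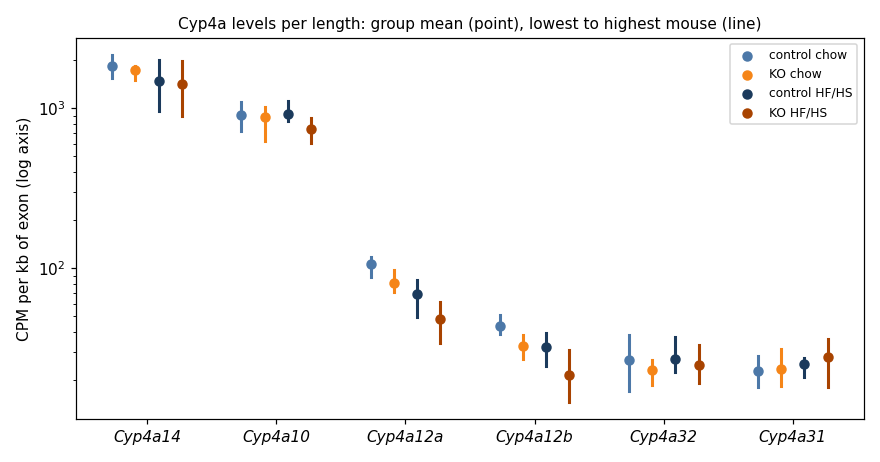
Level per length of each Cyp4a gene on a log axis, in CPM per kb of exon, with group means as points and lines from the lowest to the highest mouse. Cyp4a14 and Cyp4a10 lie well above the other 4 genes in all groups, and the Cyp4a12 genes move down from control on chow to KO on HF/HS.

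*Cyp4a12a* and *Cyp4a12b* fell on HF/HS in both genotypes. In controls, *Cyp4a12a* ranged from 214 to 285 CPM on chow (median 258, n = 7) and from 121 to 206 on HF/HS (median 171, n = 7). In KO mice it ranged from 172 to 235 on chow (median 189, n = 6) and from 82.8 to 148 on HF/HS (median 109, n = 7). The HF/HS and chow groups did not overlap in either genotype. The fall was -0.62 ± 0.10 (log2 fold change ± SE, edgeR, adjusted p = 0.00114) in controls and -0.76 ± 0.13 (edgeR, adjusted p = 0.00373) in KO mice. Every HF/HS mouse was lower than every chow mouse for 1.95% of genes tested in controls and 1.31% in KO mice.

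*Cyp4a12b* ranged in controls from 92.9 to 122 CPM on chow (median 99.4, n = 7) and from 59.0 to 94.7 on HF/HS (median 85.3, n = 7). In KO mice the values were 64.7 to 91.9 on chow (median 79.5, n = 6) and 34.9 to 74.3 on HF/HS (median 49.997, n = 7). The groups overlapped in both genotypes, with 6 of 7 control mice on HF/HS and 5 of 7 KO mice on HF/HS below all chow mice of their genotype. *Cyp4a12b* fell by 0.43 ± 0.11 on the log2 scale in controls (edgeR, adjusted p = 0.0224) and by 0.61 ± 0.17 in KO mice (edgeR, adjusted p = 0.0463). The call in KO mice held in only 3 of 13 fits that each left out 1 mouse, those without replicate 1 on chow or without replicate 4 or 6 on HF/HS, and in the other 10 the adjusted p of edgeR ran from 0.0547 to 0.105. The call in controls was lost without replicate 5 on chow (edgeR, adjusted p = 0.0531) and in 1 fit of all 27 mice (edgeR, adjusted p = 0.0577), and that in KO mice also with no filter on low counts (edgeR, adjusted p = 0.0707). Thus 2 of 6 genes were lower by the test in each genotype, beside 5.6% of all genes tested in controls and 2.73% in KO mice, and none of the 6 was higher.

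The sum of *Cyp4a12a* and *Cyp4a12b* does not depend on how reads were split between them. It was 361 ± 32.5 CPM in controls on chow, 275 ± 30.1 in KO mice on chow, 244 ± 39.8 in controls on HF/HS and 168 ± 35.4 in KO mice on HF/HS (SD, n = 7, 6, 7 and 7). The sum fell on HF/HS by 0.56 ± 0.09 on the log2 scale in controls (edgeR, adjusted p = 0.000979) and by 0.71 ± 0.12 in KO mice (edgeR, adjusted p = 0.0033). The sum kept its call with each mouse left out. The sum of *Cyp4a10*, *Cyp4a31* and *Cyp4a32*, in which *Cyp4a10* takes most counts, moved on HF/HS by 0.04 ± 0.09 in controls and -0.21 ± 0.10 in KO mice (edgeR, adjusted p = 0.826 and 0.229).

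**Figure D2:**
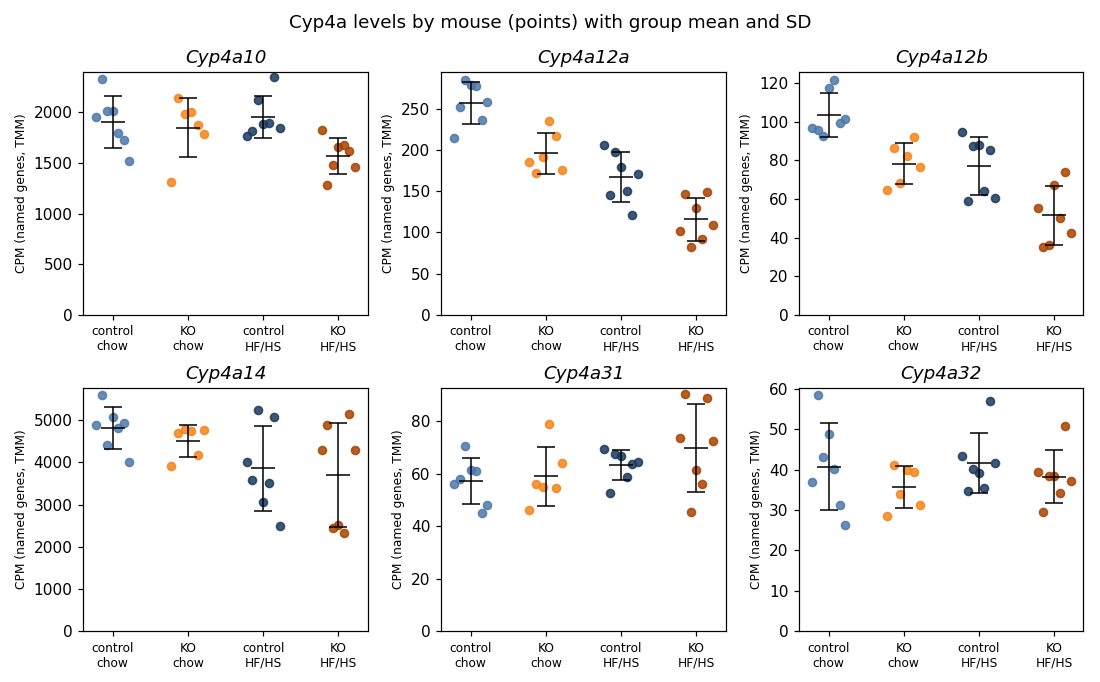
Level of each Cyp4a gene in CPM, 1 point per mouse, with the group mean and SD as black bars, for controls and KO mice on chow and HF/HS. Means of Cyp4a12a step down from left to right. Those of Cyp4a12b are alike in KO mice on chow and controls on HF/HS (78.4 and 77.0 CPM). Cyp4a14 spreads from 2329.6 to 5136 CPM in KO mice on HF/HS.

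Between genotypes, the *Cyp4a12* genes had lower means in KO mice on both diets. On chow, all 6 KO mice were below all 7 controls for *Cyp4a12b* (78.4 ± 10.5 against 104 ± 11.3 CPM) and 4 of 6 for *Cyp4a12a* (196 ± 24.8 against 257 ± 25.7 CPM). The log2 differences were -0.40 ± 0.09 and -0.39 ± 0.08. On HF/HS, 5 of 7 KO mice were below all controls for *Cyp4a12b* (51.5 ± 15.1 against 77.0 ± 15.1 CPM) and 4 of 7 for *Cyp4a12a* (116 ± 26.2 against 167 ± 30.3 CPM), with log2 differences of -0.58 ± 0.18 and -0.53 ± 0.14.

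The genotype difference of *Cyp4a10*, a lauric acid hydroxylase and PPARA target, was larger in value on HF/HS than on chow. On HF/HS the controls ran from 1768 to 2347 CPM (median 1884, n = 7) and the KO mice from 1278 to 1825 (median 1616, n = 7), and 6 of 7 KO mice had less than any control, a log2 difference of -0.31 ± 0.08. On chow the controls ran from 1518 to 2326 CPM (median 1955, n = 7) and the KO mice from 1313 to 2142 (median 1929.8, n = 6), and 5 of 6 KO mice lay within the range of the controls (log2 difference -0.04 ± 0.11). HF/HS moved *Cyp4a10* by 0.03 ± 0.09 in controls (edgeR, adjusted p = 0.859) and by -0.24 ± 0.10 in KO mice (edgeR, adjusted p = 0.192). Without replicate 1 of the KO mice on chow, the lowest of its group at 1313 CPM, the latter was -0.32 and passed (edgeR, adjusted p = 0.0314), and with it left out the sum of *Cyp4a10*, *Cyp4a31* and *Cyp4a32* did too (-0.29, edgeR, adjusted p = 0.0382).

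None of the 6 genes passed the test between genotypes. On chow it was 0 of 6 with edgeR and with limma voom, each of which called 0.00737% of all genes tested. Before adjustment 2 of 6 had p under 0.05 with edgeR, beside 5.98% of all genes, and DESeq2 called 2 of 6 (*Cyp4a12a* and *Cyp4a12b*), beside 0.0958% of all genes. On HF/HS both edgeR and limma voom called 0 of 6, beside 0.0148% of all genes. With edgeR 3 of 6 had p under 0.05 before adjustment, beside 9.64% of all genes. DESeq2 called 1, beside 0.406%, and this was *Cyp4a10*, close to the threshold (DESeq2, adjusted p = 0.0495). Over all genes, every KO mouse was lower than every control for 0.0516% on chow and 0.0665% on HF/HS. The medians of the 6 log2 differences were -0.14 on chow and -0.22 on HF/HS, beside 0.0031 and -0.0015 for all genes. Genotype values of 3 of the 6 were known when the family was chosen, so nothing is read from these counts and medians.

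*Cyp4a14*, the most abundant member and another PPARA target, varied most among mice on HF/HS. On chow it ran from 4009.8 to 5596 CPM in controls (median 4897, n = 7) and from 3909.6 to 4780.5 in KO mice (median 4728, n = 6). On HF/HS it ran from 2498 to 5241 in controls (median 3584, n = 7) and from 2329.6 to 5136 in KO mice (median 4286, n = 7). The SD was 503 and 376 CPM on chow against 1007 and 1226 on HF/HS. In KO mice on HF/HS no mouse lay between 2514 CPM, the highest of 3 low mice (replicates 3, 4 and 5), and 4286 CPM, the lowest of the other 4. HF/HS moved the gene by -0.32 ± 0.14 in controls (edgeR, adjusted p = 0.163) and by -0.29 ± 0.19 in KO mice (edgeR, adjusted p = 0.392), and the genotypes differed by -0.09 ± 0.08 on chow and -0.06 ± 0.22 on HF/HS.

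*Cyp4a31* and *Cyp4a32*, the low members beside *Cyp4a10*, overlapped between all groups. Group means of *Cyp4a31* lay between 57.2 ± 8.64 CPM in controls on chow and 69.7 ± 16.7 in KO mice on HF/HS, and those of *Cyp4a32* between 35.7 ± 5.18 in KO mice on chow and 41.7 ± 7.49 in controls on HF/HS. HF/HS moved *Cyp4a31* by 0.14 ± 0.09 in controls and 0.24 ± 0.16 in KO mice (edgeR, adjusted p = 0.342 and 0.398), the opposite sign to the *Cyp4a12* genes. The corresponding values of *Cyp4a32* were 0.03 ± 0.16 and 0.10 ± 0.11 (edgeR, adjusted p = 0.935 and 0.65), the latter from 0.016 to 0.15 with 1 mouse left out.

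**Figure D3:**
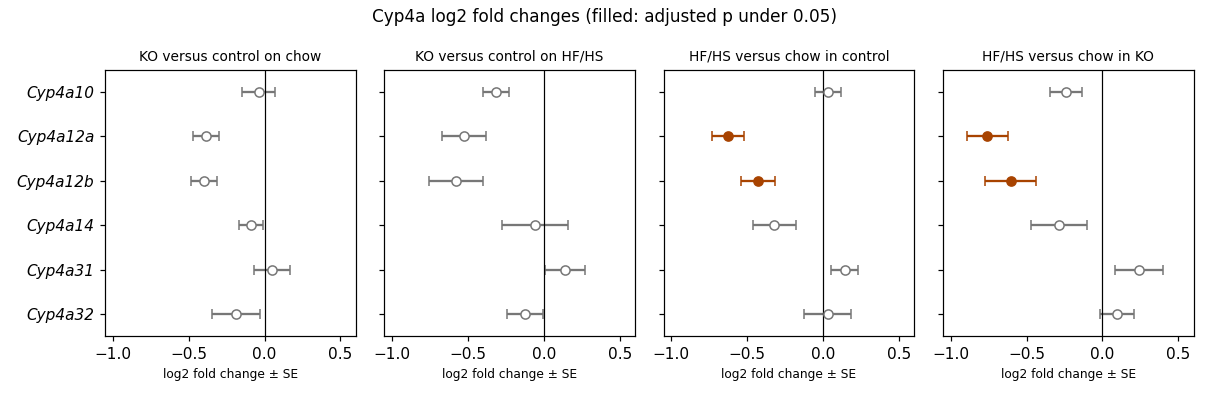
Log2 fold change of each Cyp4a gene with its SE in 4 comparisons, on 1 common axis. Filled points mark an adjusted p under 0.05, which only Cyp4a12a and Cyp4a12b reached, in the 2 diet comparisons.

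A change of the genotype difference with diet did not pass the test for any of the 6 genes (0 of 6 with edgeR, DESeq2 and limma voom, beside 0% of all genes, and 0 with p under 0.05 before adjustment, beside 3.63%). The largest estimate was that of *Cyp4a10*, whose genotype difference was 0.27 ± 0.14 lower on the log2 scale on HF/HS than on chow. For *Cyp4a12a* the corresponding change was -0.14 ± 0.18 and for *Cyp4a12b* -0.18 ± 0.21, with ranges of -0.205 to -0.0689 and -0.29 to -0.0997 when 1 mouse was left out.

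Together the 6 genes took 0.725% ± 0.0637 of the named counts in controls on chow, 0.671% ± 0.0552 in KO mice on chow, 0.616% ± 0.122 in controls on HF/HS and 0.551% ± 0.125 in KO mice on HF/HS (SD, n = 7, 6, 7 and 7). *Cyp4a14* held 61.9% to 67.1% of the family's counts as a group mean and *Cyp4a10* 26.5% to 32.3%. The *Cyp4a12* pair was thus a small part of the family by counts.

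Within the *Cyp4a12* pair, *Cyp4a12b* had 40.5 ± 4.23 counts per 100 of *Cyp4a12a* in controls on chow and 40.3 ± 6.30 in KO mice on chow. On HF/HS it had 46.9 ± 11.2 in controls and 45.2 ± 11.03 in KO mice, with a wider range, from 23.7 in replicate 2 of the KO mice to 70.5 in replicate 6 of the controls. After group means were subtracted, the 2 genes had a Pearson r of 0.38 over 27 mice. The pair *Cyp4a10* and *Cyp4a32*, in which 34.8% of *Cyp4a32* windows occur in *Cyp4a10*, had 0.75. These correlations share libraries and, through shared windows, possibly reads.

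**Figure D4:**
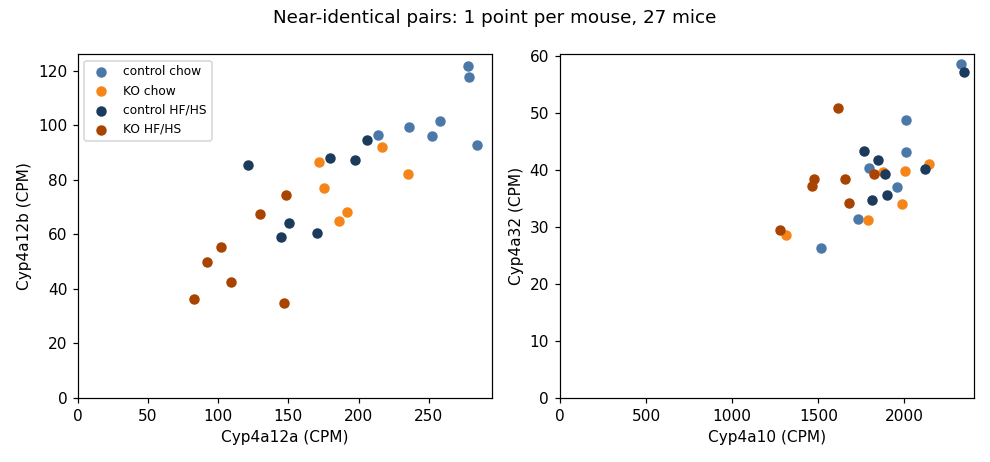
Cyp4a12b against Cyp4a12a (left) and Cyp4a32 against Cyp4a10 (right), in CPM, 1 point per mouse coloured by group, both axes from 0. The KO mice on HF/HS lie at the low end of the left plot, where Cyp4a12a runs from 82.8 to 148 CPM, and the groups are mixed along the vertical axis of the right plot.

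Some genes of the steps that follow CYP4A rose on HF/HS. Of 20 tested genes of omega-oxidation and peroxisomal chain shortening, 7 rose and 0 fell in controls (median log2 fold change 0.11, beside 0.0036 for all genes), and 2 rose and 0 fell in KO mice (median 0.07, beside 0.0037). Of all genes tested, 4.93% rose in controls and 3.17% in KO mice. *Acaa1b*, a peroxisomal thiolase, rose in both genotypes, with 1568 ± 145 on chow and 2254 ± 348 CPM on HF/HS in controls, and 1248 ± 181 and 1781 ± 251 in KO mice (edgeR, adjusted p = 0.00152 and 0.0115). So did *Crot*, the peroxisomal carnitine octanoyltransferase (edgeR, adjusted p = 0.0049 and 0.00968).

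Of 20 PPARA targets outside omega-oxidation, 8 rose and 2 fell in controls, and 1 rose and 1 fell in KO mice. Beside them, 4.93% of all genes tested rose and 5.6% fell in controls, and 3.17% and 2.73% in KO mice. The 1 of 20 in each direction in KO mice, and the 2 of 20 that fell in controls, are near these shares. *Fabp1*, the liver fatty acid binding protein, rose from 2628 ± 316 to 4007 ± 480 CPM in controls (log2 fold change 0.61 ± 0.09, edgeR, adjusted p = 0.000359) and from 2364 ± 343 to 3200 ± 475 in KO mice (0.44 ± 0.11, edgeR, adjusted p = 0.0303). *Slc27a2*, a fatty acid transporter and acyl-CoA synthetase, and *Cpt1a*, the gate of mitochondrial fatty acid entry, rose in controls by 0.33 ± 0.05 and 0.41 ± 0.06 (edgeR, adjusted p = 0.000457 and 0.000702). *Pdk4*, a kinase that restrains pyruvate oxidation, fell in controls by 0.93 ± 0.24 and in KO mice by 0.98 ± 0.24 (edgeR, adjusted p = 0.0227 and 0.0272), and *Cd36*, a fatty acid uptake protein, was the other gene of the list that fell in controls, by 0.62 ± 0.16 (edgeR, adjusted p = 0.0265). *Cyp4a10* and *Cyp4a14*, PPARA targets too, did not pass the test in either diet comparison.

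Of 4 genes of P450 reductase and cytochrome b5 electron transfer, 3 fell on HF/HS in each genotype, 1 of them *Cyb5b*, whose product is the cytochrome b5 of the outer mitochondrial membrane and not of the endoplasmic reticulum, where CYP4A enzymes lie. Of all genes tested, 5.6% fell in controls and 2.73% in KO mice. *Por*, the NADPH reductase that every microsomal P450 needs, fell from 323 ± 16.1 to 231 ± 34.1 CPM in controls (-0.49 ± 0.08, edgeR, adjusted p = 0.000883) and from 331 ± 18.4 to 209 ± 37.2 in KO mice (-0.67 ± 0.10, edgeR, adjusted p = 0.00118). *Cyb5b* fell by 0.32 ± 0.07 in controls and 0.30 ± 0.07 in KO mice, and *Cyb5a*, the microsomal cytochrome b5, by 0.29 ± 0.08 and 0.42 ± 0.11 (edgeR, adjusted p between 0.00944 and 0.0352). *Cyb5r3*, the cytochrome b5 reductase, had 0.09 ± 0.08 and -0.10 ± 0.10 (edgeR, adjusted p = 0.546 and 0.623).

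**Figure D5:**
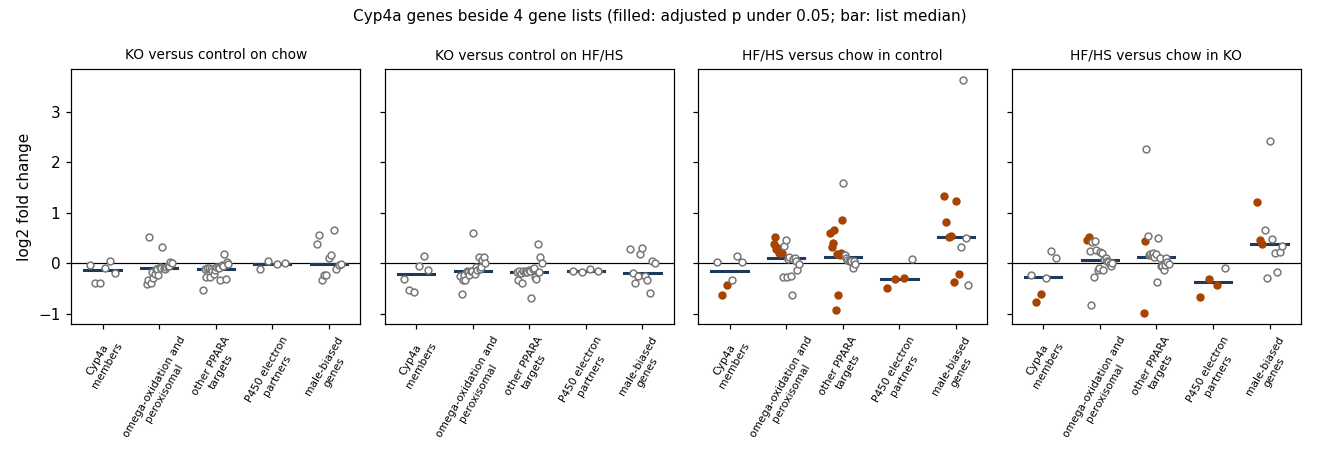
Log2 fold changes of the 6 Cyp4a genes and of 4 gene lists in 4 comparisons, 1 point per gene, with the list median as a bar and filled points for an adjusted p under 0.05. On HF/HS the filled points of the Cyp4a genes and of the P450 electron partners lie below 0, and those of omega-oxidation and peroxisomal genes lie above 0.

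Between genotypes, 0 of 20 omega-oxidation and peroxisomal genes and 0 of 20 other PPARA targets passed on either diet with edgeR. Before adjustment, p was under 0.05 for 7 and 3 genes of these lists on chow and for 10 and 12 on HF/HS, where 5.98% and 9.64% of all genes tested had such a p on chow and HF/HS. Fold changes below 0 were found for 16 of 20 and 18 of 20 genes on chow and for 15 of 20 and 17 of 20 on HF/HS, where 48.8% and 50.5% of all genes tested were below 0. These lists hold genes whose genotype values were known when the family was chosen. The smallest p belonged on chow to *Ehhadh*, *Acaa1b* and *Abcd2*, a peroxisomal fatty acid transporter (log2 differences -0.40 ± 0.09, -0.32 ± 0.09 and 0.53 ± 0.16), and to *Cd36*, *Hadha* and *Vnn1* (-0.52 ± 0.20, -0.10 ± 0.05 and -0.27 ± 0.12). On HF/HS they included *Acaa1a* and *Aldh3a2*, the fatty aldehyde dehydrogenase (-0.26 ± 0.07 and -0.61 ± 0.16), and *Cpt2*, *Fabp1* and *Creb3l3* (-0.17 ± 0.05, -0.32 ± 0.10 and -0.16 ± 0.05). The 4 electron partners had genotype differences from -0.12 to 0.04 on chow and from -0.18 to -0.11 on HF/HS, and 0 passed with edgeR on either diet (0 had p under 0.05 before adjustment).

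Of 14 other *Cyp4* genes listed, 9 were tested. On HF/HS 1 of them fell in each genotype, *Cyp4f39*, at under 1 CPM on average in every group (edgeR, adjusted p = 0.0169 in both genotypes), where 5.6% of all genes fell in controls and 2.73% in KO mice. Between genotypes 0 of 9 passed with edgeR. Before adjustment 1 gene had p under 0.05 on chow and 2 had it on HF/HS, *Cyp4f16* each time (log2 difference 0.51 ± 0.19 and 0.49 ± 0.16), beside 5.98% and 9.64% of all genes.

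Among 13 regulators of *Cyp4a* genes, 2 rose and 1 fell on HF/HS in controls and 0 passed in KO mice with edgeR. Beside them, 4.93% of all genes rose and 5.6% fell in controls, and 3.17% and 2.73% in KO mice. In KO mice 4 of 13 regulators had p under 0.05 before adjustment, beside 3043 of 13613 genes tested. *Ppara* rose from 244 ± 30.6 to 328 ± 55.9 CPM in controls (0.42 ± 0.10, edgeR, adjusted p = 0.0162) and went from 217 ± 41.7 to 298 ± 49.8 in KO mice (0.46 ± 0.13, edgeR, adjusted p = 0.0527). *Ghr*, the growth hormone receptor, rose in controls by 0.17 ± 0.05 and *Ppard* fell by 0.25 ± 0.06 (edgeR, adjusted p = 0.0299 and 0.0233). In controls *Pparg*, *Rxra*, *Ppargc1a*, *Jak2*, *Stat5a*, *Stat5b*, *Bcl6*, *Cux2* and *Hnf4a* had log2 fold changes from -0.22 to 0.21 and did not pass. Between genotypes 0 of 13 passed on either diet with edgeR, while 2 had p under 0.05 before adjustment on each (of all genes, 5.98% and 9.64%). These were *Pparg* (-0.46 ± 0.11) and *Cux2* (0.88 ± 0.37, at about 1 CPM or less) on chow, and *Ppard* (0.26 ± 0.08) and *Pparg* (-0.44 ± 0.20) on HF/HS, and *Pparg* was at 4.00 to 6.31 CPM as a group mean.

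*Cyp4a12a* is a male-predominant gene, so other sex-biased liver genes are given beside it. Of 11 male-biased liver genes, 5 rose and 2 fell on HF/HS in controls, and 3 rose and 0 fell in KO mice (of all genes, 4.93% rose and 5.6% fell in controls, and 3.17% and 2.73% in KO mice). *Hsd3b5*, a steroid-reducing enzyme, rose from 83.4 ± 22.4 to 212 ± 23.8 CPM in controls (1.34 ± 0.14, edgeR, adjusted p = 2.58e-05) and from 76.5 ± 25.1 to 178 ± 45.4 in KO mice (1.21 ± 0.23, edgeR, adjusted p = 0.00784). *Slco1a1*, an organic anion transporter, rose in both as well (edgeR, adjusted p = 0.00724 and 0.0356), while *Gstp1* and *Cyp2d9* fell in controls by 0.38 ± 0.10 and 0.21 ± 0.06 (edgeR, adjusted p = 0.0195 and 0.0462). Of the female-biased genes tested, 4 of 6 fell in controls and 3 of 7 in KO mice. The smallest p in both genotypes belonged to *Cyp3a41a* and *Cyp3a44*, near-identical to other *Cyp3a* genes and under 2 CPM as group means. Between genotypes 0 of the sex-biased genes passed on either diet with edgeR. The male-biased genes had a median log2 difference of -0.02 on chow and -0.20 on HF/HS, and 2 of 11 had p under 0.05 before adjustment on each. The female-biased genes tested had a median of 0.29 on chow, where 3 of 7 had such a p, and of 0.46 on HF/HS, where 2 of 5 had it (of all genes, 5.98% on chow and 9.64% on HF/HS).

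Kupffer cell and leukocyte markers moved beside the diet comparison of KO mice. Of 9, 4 rose there, and their summed level ran from 122 to 189 CPM on chow and from 172 to 279 on HF/HS. In controls 0 of 9 passed with edgeR, and the sums were 123 to 253 and 161 to 334 CPM. Before adjustment 1 of 9 had p under 0.05 in controls, beside 3433 of 13525 genes tested. Hepatocyte markers were 1 higher and 1 lower of 10 in controls and 1 lower of 10 in KO mice. Endothelial markers were 1 higher of 6 in KO mice, stellate cell markers 1 lower of 7 in controls, and kidney tubule markers 1 higher of 2 tested in each genotype. In the same comparisons 4.93% of all genes rose and 5.6% fell in controls, and 3.17% and 2.73% in KO mice. Between genotypes 0 of 9 Kupffer cell and leukocyte markers and 0 of 6 endothelial markers passed on either diet with edgeR (on chow 1 and 0 had p under 0.05 before adjustment, on HF/HS 0 and 2). On chow 9 of 9 and 5 of 6 of them had log2 differences below 0 (medians -0.29 and -0.21), beside the lower *Cyp4a12* means of KO mice, and on HF/HS 4 of 9 and 5 of 6 did (medians 0.06 and -0.17). The hepatocyte markers, of which *Alb*, serum albumin, gave most counts, summed on chow to a median of 87658 CPM in controls and 99285 in KO mice and on HF/HS to 90798 and 107170, and 0 of 10 passed between genotypes on either diet with edgeR (2 and 3 had p under 0.05 before adjustment, and 3 and 5 had log2 differences below 0). Between genotypes, 5.98% of all genes tested on chow and 9.64% on HF/HS had p under 0.05 before adjustment. Log2 differences below 0 were found for 48.8% and 50.5% of all genes. The part of cell composition in the *Cyp4a* values was not tested.

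Over the 27 mice, genes outside the family had log2 levels most like those of single members as follows. For *Cyp4a12a* these were *Abhd3*, *Atp5b* and *Ugdh* (Pearson r 0.82, 0.82 and 0.81 of 13926 genes compared) and for *Cyp4a12b* *Atxn10*, *Suox* and *Afg3l1* (0.82, 0.80 and 0.80). *Inppl1* and *Tbc1d13* were among those of *Cyp4a14* (0.83 and 0.83). For *Cyp4a10* they were *Hsd17b10*, *Cops5* and *Sdha* (0.76, 0.75 and 0.75), for *Cyp4a31* *Rab17*, *Tpcn2* and *Sorl1* (0.74, 0.70 and 0.68) and for *Cyp4a32* *Catsperg1*, *Ppp1r3f* and *Dis3l2* (0.77, 0.65 and 0.61). These r describe the mice and were taken as the highest of many, and group differences and depth are shared by all genes.

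After group means were subtracted, the likeness changed for most members. *Cyp4a14* was then closest to *Gys2*, liver glycogen synthase, *Ssh1* and *Ehhadh*, a peroxisomal PPARA target (r 0.84, 0.81 and 0.81). *Cyp4a10* was closest to *Pcx*, *Mfsd4b1* and *Creb3l3* (0.80, 0.68 and 0.68), *Cyp4a12a* to *Nup188*, *Cfb* and *Colgalt1* (0.66, 0.66 and 0.64), and *Cyp4a12b* to *Cnksr1*, *Serpine2* and *Inafm1* (0.70, 0.67 and 0.66). *Rab17* was first for *Cyp4a31* both ways (0.75, then *Oplah* 0.73), and *Catsperg1*, at under 1 CPM, for *Cyp4a32* (0.76, then *Cops5* 0.69 and *Vcpkmt* 0.63).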

How the data were processed

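The authors extracted liver RNA, made stranded mRNA libraries, sequenced paired-end reads of 50 bases, aligned the reads with HISAT2 to GRCm38 and ran featureCounts (version 1.6.3 in the submitters' processing notes). The deposited counts per gene are raw, in 1 table. The strand setting, the annotation and the treatment of reads that fit several genes were not given in the sources used here. Groups follow the labels of the samples. Rows without a gene name (4.13% to 12.1% of a library) stayed out of library sizes and tests. No columns belonged to unmatched samples.

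The main test was the quasi-likelihood test of edgeR 4.0.16 under R 4.3.3 (TMM, filterByExpr with a minimum count of 10 and a minimum total of 15, robust fit, Benjamini-Hochberg adjusted p under 0.05). Each comparison used only its 2 groups, and the genotype by diet interaction used all 27 mice. SE is the absolute log2 fold change divided by the square root of F. The alternatives were DESeq2 1.42.0, limma 3.58.1 voom, other scalings and filters, a replicate block, 1 fit of all mice and each mouse left out. Lengths, coordinates and sequences come from GENCODE M21 on GRCm38. The fits were tested on simulated counts.

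The family, the lists of genes and the choice of genes to name were made with earlier results of these data known. The rule names every member, the 3 genes with the highest Pearson r of log2 CPM (prior count 2) with each member, before and after subtracting group means, the 3 genes of each list with the smallest p, and all regulators and electron partners. *Gstp1*, *Cyp2d9*, *Alb* and the diet values of *Pdk4* and *Cd36* in controls, outside the rule, were chosen after their values were seen. Some genes that the rule names are not reported here.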

Additional observations from a re-analysis of the deposited data

Results flagged for a closer look

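Of 32 sets of mice, made of the 6 *Cyp4a* levels, the ratio within the *Cyp4a12* pair and the family's share of counts in 4 groups each, 2 held 1 mouse that stood apart from the rest by Dixon's test. Chance marks about 1 in 20 such sets. Both were replicate 6 of the controls on HF/HS. *Cyp4a32* had 57.1 CPM in it, while the other mice of the group had 34.6 to 43.2 CPM. In the same mouse *Cyp4a12b* had 70.5 counts per 100 of *Cyp4a12a*, while the others had 35.5 to 48.9.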

How the results depend on the processing

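The fall of the *Cyp4a12* genes on HF/HS rests mainly on *Cyp4a12a* and on the sum of the pair, which passed in both genotypes under all alternatives run. *Cyp4a12b* was nearer the threshold, so the number of genes called on HF/HS was 1 in place of 2 in controls in 1 fit of all 27 mice, and 1 in KO mice with no filter on low counts. With each mouse left out in turn it was 1 to 2 in controls and 1 to 3 in KO mice, and 0 throughout between genotypes and for the interaction. DESeq2 called 2 genes between genotypes on chow and 1 on HF/HS, and also the sum of *Cyp4a12a* and *Cyp4a12b* (log2 difference -0.39 and -0.545). Over all genes DESeq2 called 13 on chow and 55 on HF/HS where edgeR called 1 and 2, and 1401 for HF/HS in KO mice where edgeR called 802. With 1 mouse left out, edgeR called 2 to 11 on HF/HS between genotypes (11 without KO replicate 5), 976 to 1780 for HF/HS in controls and 467 to 950 in KO mice, and in the 1 fit of all 27 mice it called 1 between genotypes on HF/HS. The cause was not tested.

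Same-numbered mice did not deviate together in every pair (median correlation of their deviations -0.06 to 0.13 over 6 pairs of groups, with at most 2 mice per pair of groups closest to their own number), so the mice share only a number. With the replicate number as a block 1 of 6 genes was called on HF/HS in KO mice (*Cyp4a12b* had adjusted p = 0.0809, edgeR), all genes called in controls went from 1424 to 774, and in the other 4 comparisons the count for the 6 genes was that without the block.

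Values near 0 changed sign when 1 mouse was left out. Between genotypes on chow these were *Cyp4a10* (-0.0865 to 0.0415), its sum with *Cyp4a31* and *Cyp4a32* (-0.0872 to 0.0402) and *Cyp4a31* (-0.0485 to 0.11), and on HF/HS *Cyp4a14* (-0.15 to 0.0337). On HF/HS against chow in controls they were *Cyp4a10* (-0.0126 to 0.0856), its sum (-0.0123 to 0.0884) and *Cyp4a32* (-0.058 to 0.14), and in the interaction *Cyp4a14* (-0.0614 to 0.12) and *Cyp4a32* (-0.0431 to 0.16). In KO mice the sum with *Cyp4a10* moved on HF/HS by -0.29 to -0.18. Levels per length with the longest transcript differed by less than 1 SD from those with merged exons.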
